A study of Mus musculus with 2 samples.

Results

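The promoters described here were unmethylated in wild-type osteoblasts and carried methylation in osteoblasts from mice with a conditional knockout of the Tet genes. They were chosen by the methylation values themselves. For each autosomal protein-coding gene of GENCODE M21, the CG cytosines within 500 bp of the transcription start site (TSS) of the gene record were pooled, with at least 8 CG cytosines and 30 calls in each library. A call is 1 sequenced read base at a CG cytosine, and a methylation level is the share of calls read as methylated. A member had a level below 15% in WT and a level at least 25 percentage points higher in TCKO. Of 20807 genes, 18151 promoters had enough cytosines and calls, 10978 of these were below 15% in WT, and 133 were members, which is 1.21% of the promoters that could have met the second limit. The reverse rule, with TCKO below 15% and WT at least 25 points higher, was met by 5 of 10245 promoters, which is 0.0488%; these were Dbndd2, Fndc5, Slc25a22, Pcyt2 and Fam49a. The levels of the members in this window are therefore a description of the choice, and no test was run on them. Here "gained" means that a promoter met the rule.

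DNA came from primary osteoblasts of 3-day-old C57BL/6 mice, isolated from calvarial bone and cultured for 3 days. The wild-type library (WT) is compared with a library from mice in which Prx1-Cre, active in limb and calvarial mesenchyme, deletes the floxed alleles Tet1fl/fl, Tet2fl/fl and Tet3fl/fl (TCKO). There was 1 library per genotype, so no value has a replicate check and a difference between libraries cannot be told apart from a difference between genotypes. The knockout acts only where Prx1-Cre is active, and other cells of the calvarial preparation keep their alleles. The study asked how loss of TET proteins alters methylation in bone-forming cells.

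TET enzymes oxidize 5-methylcytosine, which begins its removal, and DNA methyltransferases add it. Most CpG-dense promoters, the CpG islands, lie in DNA that is free of methylation in nearly every cell type. Promoters with few CpGs are often methylated and lose methylation in the cells that use the gene. Methylation close to the TSS is commonly associated with silent genes. Bisulfite sequencing reads 5-methylcytosine and 5-hydroxymethylcytosine alike as methylated.

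The bases directly upstream of the TSS are shown for 8 members with few CpGs, taken from the members with the highest lower bounds of the gain and from the collagens, and the outer part of the window is shown for Orai1, a member in a CpG island. The sequences are from the RefSeq copy of GRCm38 in the direction of transcription, the capitals mark CpGs, and the annotation has no exon in any of them. They lie at chr2:126034358-126034657 (Fgf7), chr3:95498956-95499255 (Ctsk), chr12:103433911-103434210 (Ifi27), chr3:151762893-151763192 (Ifi44l, minus strand), chr3:138217460-138217759 (Adh7), chr5:30012814-30013113 (Il6), chr13:49544143-49544442 (Aspn), chr1:90843972-90844271 (Col6a3, minus strand) and chr5:123014574-123014723 (Orai1).
Fgf7: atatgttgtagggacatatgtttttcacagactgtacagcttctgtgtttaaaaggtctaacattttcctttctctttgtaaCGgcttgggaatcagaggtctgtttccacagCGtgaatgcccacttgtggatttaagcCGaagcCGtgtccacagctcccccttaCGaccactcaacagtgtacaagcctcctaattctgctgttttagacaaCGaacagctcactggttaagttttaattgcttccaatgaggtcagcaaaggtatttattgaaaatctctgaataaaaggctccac
Ctsk: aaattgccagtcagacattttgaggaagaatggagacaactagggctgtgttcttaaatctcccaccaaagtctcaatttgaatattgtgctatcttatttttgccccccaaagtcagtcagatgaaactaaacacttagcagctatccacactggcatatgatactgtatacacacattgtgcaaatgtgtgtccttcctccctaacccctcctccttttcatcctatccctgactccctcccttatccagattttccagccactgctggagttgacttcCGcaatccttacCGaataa
Ifi27: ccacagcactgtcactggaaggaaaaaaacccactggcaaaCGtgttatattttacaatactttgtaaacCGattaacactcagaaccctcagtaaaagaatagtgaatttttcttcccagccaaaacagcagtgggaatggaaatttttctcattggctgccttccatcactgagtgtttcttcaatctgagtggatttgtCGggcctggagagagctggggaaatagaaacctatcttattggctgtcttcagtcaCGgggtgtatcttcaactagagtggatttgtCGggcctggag
Ifi44l: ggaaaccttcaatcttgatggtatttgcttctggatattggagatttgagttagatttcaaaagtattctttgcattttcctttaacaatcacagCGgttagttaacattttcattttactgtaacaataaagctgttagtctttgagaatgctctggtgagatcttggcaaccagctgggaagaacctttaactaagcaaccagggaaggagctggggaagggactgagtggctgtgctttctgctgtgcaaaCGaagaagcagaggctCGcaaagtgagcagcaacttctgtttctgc
Adh7: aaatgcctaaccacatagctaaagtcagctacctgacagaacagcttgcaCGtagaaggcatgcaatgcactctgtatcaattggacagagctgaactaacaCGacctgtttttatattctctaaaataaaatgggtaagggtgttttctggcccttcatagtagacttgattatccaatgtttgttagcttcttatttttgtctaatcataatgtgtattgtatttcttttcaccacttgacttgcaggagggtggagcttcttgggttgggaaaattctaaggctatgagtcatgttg
Il6: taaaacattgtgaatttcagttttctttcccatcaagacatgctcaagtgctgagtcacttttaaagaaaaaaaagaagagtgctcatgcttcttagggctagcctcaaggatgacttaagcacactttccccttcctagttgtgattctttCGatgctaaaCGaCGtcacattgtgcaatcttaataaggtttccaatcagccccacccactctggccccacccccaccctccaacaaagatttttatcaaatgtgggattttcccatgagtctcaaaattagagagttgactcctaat
Aspn: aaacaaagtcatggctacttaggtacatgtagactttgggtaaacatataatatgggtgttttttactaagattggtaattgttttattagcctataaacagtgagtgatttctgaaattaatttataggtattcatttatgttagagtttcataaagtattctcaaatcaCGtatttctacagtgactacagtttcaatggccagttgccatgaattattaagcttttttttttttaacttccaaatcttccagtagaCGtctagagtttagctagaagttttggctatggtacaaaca
Col6a3: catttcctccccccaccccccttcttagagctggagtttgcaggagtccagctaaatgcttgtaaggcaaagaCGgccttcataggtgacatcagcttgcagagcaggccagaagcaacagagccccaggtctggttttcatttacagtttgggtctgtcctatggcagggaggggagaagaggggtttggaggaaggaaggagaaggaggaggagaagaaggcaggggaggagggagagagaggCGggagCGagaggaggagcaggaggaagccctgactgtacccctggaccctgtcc
Orai1: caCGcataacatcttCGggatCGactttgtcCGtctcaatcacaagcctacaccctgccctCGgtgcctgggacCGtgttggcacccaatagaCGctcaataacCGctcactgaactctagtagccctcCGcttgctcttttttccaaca

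The 300 bases before the TSS of Fgf7 hold 6 CpGs, and all 80 WT calls on them were unmethylated while 33 of 48 TCKO calls were methylated (68.8%). The pair of CpGs before Ctsk, at 19 and 7 bp upstream of the TSS, had 0 of 35 methylated calls in WT and 35 of 48 in TCKO (72.9%). Each of these CpGs was affected: the outer one had 22 of 26 methylated TCKO calls and the inner one 13 of 22. In Ifi27 the 5 CpGs had 0 of 68 methylated calls in WT and 43 of 75 in TCKO (57.3%). The 3 CpGs of Il6 stand within 14 bp of each other, and their 28 of 45 methylated TCKO calls (62.2%) stood against 0 of 25 in WT. The CpGs before Ifi44l, Adh7 and Aspn had 9 of 21, 22 of 29 and 20 of 41 methylated TCKO calls, against 1 of 25, 2 of 21 and 1 of 62 in WT. So a member with few CpGs near its TSS could have no methylated WT call and a majority of methylated TCKO calls on a handful of CpGs. Col6a3 differed in that its 3 upstream CpGs had 6 of 31 methylated TCKO calls (19.4%) and 1 of 51 in WT, and its gain lay elsewhere in the window. The 150 bases shown for Orai1 begin 500 bp upstream of its TSS and hold 9 CpGs, with 4 of 54 methylated calls in WT and 34 of 92 in TCKO (37.0%).

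Over all 133 members the median level was 6.84% in WT (quartiles 4.07% and 11.3%) and 42.1% in TCKO (quartiles 34.8% and 55.05%). The median gain was 32.0 points and the gains ran from 25.01 to 76.0 points. In TCKO, 38 members reached 50% and 6 reached 75%, so most members were partly methylated. In WT, 6 members had no methylated call and 42 were below 5%. A typical member rested on 118 WT calls and 81 TCKO calls (medians). The lower bounds of the 95% Newcombe intervals of the gain ran upward from 9.19 points and were above 25 points for 57 members; since the same calls chose the members, these bounds describe precision and support nothing. These intervals, and the Wilson intervals of the levels below, cover counting error only, and neighbouring calls often come from the same read.

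**Figure D1:**
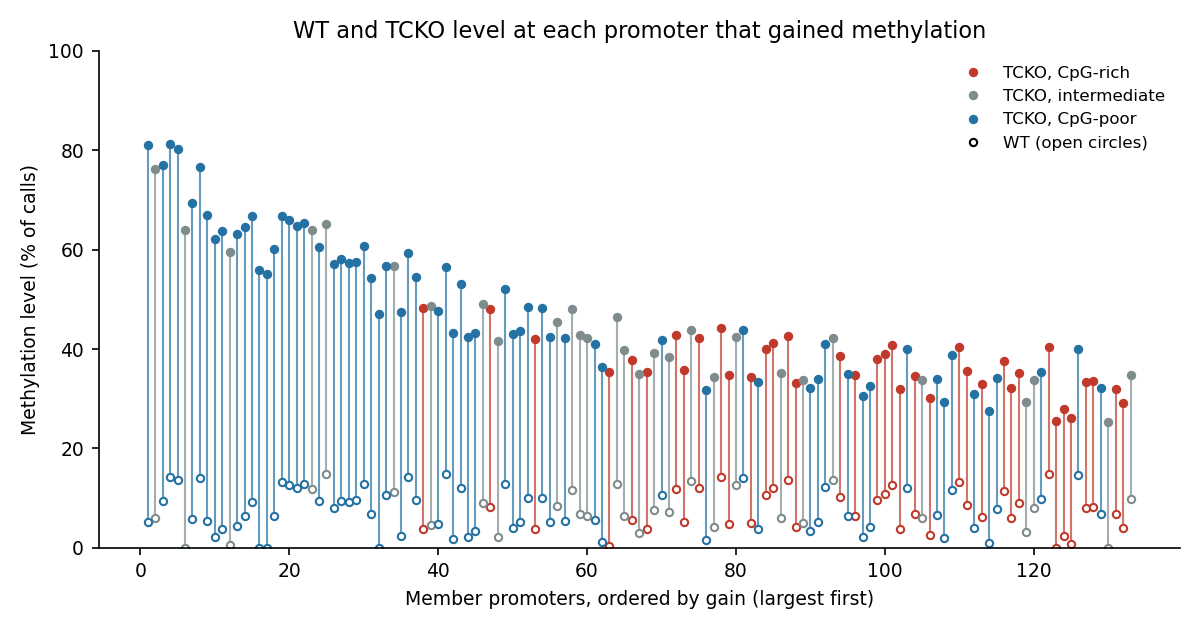
Methylation level (% of calls) in WT (open circles) and TCKO (filled circles) at each of the 133 members, ordered by gain and coloured by CpG class. WT levels stay below 15% by the rule, and TCKO levels run from 25.2% to 81.2%, mostly CpG-poor at the high end.

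A difference of this size was uncommon. Of the 10978 promoters that were unmethylated in WT, 6184 (56.3%) had a higher level in TCKO and 2600 (23.7%) a lower one. The rest had equal levels, and the median difference was 0.44 points. Between 10 and 15 points higher stood 354 promoters, between 15 and 20 points 141, between 20 and 25 points 77, and between 25 and 30 points 55. The number of promoters fell steadily across the limit, with no gap between members and the promoters below it. Just inside the limit of 25 points were Shisal2a (25.2 points), Nucb1 (25.1) and Mrm1 (25.01), and just outside were Sec24b (24.8), Lrrc27 (24.7) and Avl9 (24.5). At the WT limit, Spaca7 (14.9% in WT, 56.5% in TCKO) and Ispd (14.9% and 40.4%) were inside, while Lyrm9 (15.02% and 44.1%) and Ankrd1 (15.04% and 79.5%) were outside.

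Matrix genes formed 14 of the members. 4 of them belong to the small leucine-rich proteoglycans, secreted proteins that bind collagen fibrils, counted here with the related Ecm2. Asporin (Aspn), which binds collagen and restrains TGF-beta, had 8 of 124 methylated calls in WT (6.45%, 95% interval 3.31 to 12.2) and 71 of 110 in TCKO (64.5%, 55.3 to 72.9). Ecm2, which lies 39633 bp from Aspn on chromosome 13, had 6.48% in WT and 60.2% in TCKO, each of 108 calls. Fibromodulin (Fmod), which guides collagen fibril assembly, had 9.52% of 126 calls in WT and 57.5% of 80 in TCKO, a gain of 48.0 points. Lumican (Lum) had 4.76% of 105 calls in WT and 47.6% of 103 in TCKO. In the whole family of 11 autosomal genes, a list set after the members were known, all 11 had a higher level in TCKO (Optc by only 0.012 points), 6 were below 15% in WT and 4 of those were members, against 1.21% of all promoters below 15% in WT. Since the family was picked for its members, nothing is read from that count. The remaining genes of the Aspn cluster, Omd and Ogn, were already partly methylated in WT (33.5% and 21.3%) and stood at 73.0% and 59.0% in TCKO. Prelp missed the limit by little, with 12.5% in WT and 36.1% in TCKO, while decorin (Dcn) had 2.38% and 15.2%.

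Collagens made up 5 more of the matrix members. Col6a3, a chain of collagen VI, had 3 of 174 methylated calls in WT (1.72%) and 48 of 111 in TCKO (43.2%), a gain of 41.5 points (interval 32.1 to 50.9). Col5a2, a chain of the collagen V that starts fibrils, had 2.26% of 177 calls in WT and 42.5% of 106 in TCKO. Its neighbour Col3a1 had 1 of 61 methylated calls in WT and 20 of 63 in TCKO (31.7%). Col6a1 had 5.22% of 134 calls in WT and 33.9% of 62 in TCKO. Col1a2, a chain of type I collagen, the main protein of bone, stood close to the limit with 9.86% of 71 calls in WT and 35.4% of 65 in TCKO. Its strands differed: on the plus strand the levels were 3.70% and 45.5%, and on the minus strand 29.4% and 25%, so the gain rested on the plus strand alone. Of 29 collagen promoters below 15% in WT, 5 were members (17.2%), against 1.21% of all such promoters. Those 5 windows held 7 to 17 CpGs, with a median of 15. The other 24 held 17 to 98, with a median of 46 and a median gain of 0.96 points. Mgp, an inhibitor of mineralization, had 6.44% of 202 calls in WT and 34.9% of 149 in TCKO. Of the bone and osteoblast list, 9 of 46 promoters unmethylated in WT were members (19.6%), and the median difference over those 46 was 2.11 points. That list was not matched for CpG density, with which the share of members fell, as given below. Thbs4, Sparcl1, Igfbp7 and the hyaluronan synthase Has1 completed the matrix members, with gains of 29.8, 29.6, 28.3 and 38.3 points.

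Genes for secreted signals numbered 8. The chemokine Ccl7, a monocyte attractant, had the highest gain of the members, with 2 of 39 methylated calls in WT (5.13%, interval 1.42 to 16.9) and 30 of 37 in TCKO (81.1%, 65.8 to 90.5). Its window holds only 4 CpGs. Fgf7, a growth factor that mesenchyme makes for epithelium, had 14 of 234 methylated calls in WT (5.98%) and 128 of 168 in TCKO (76.2%), and the gain of 70.2 points had the highest lower bound of the members (62.3 points). The 2 strands of Fgf7 were alike, with 6.31% and 5.69% in WT and 76.0% and 76.5% in TCKO. Il6, an inflammatory cytokine, had 3.70% of 135 calls in WT and 63.7% of 113 in TCKO. Il16 and Il17d followed with gains of 35.9 and 29.9 points, Sostdc1, an antagonist of BMP and Wnt signals, with 37.3 points, Lrrc17 with 36.9 points and C1qtnf5 with 35.3 points. The family of interleukins and their receptors, a list made of symbol prefixes, had 15 promoters unmethylated in WT, of which 4 were members (26.7%), namely Il6, Il16, Il17d and Il1r1, against 1.21% of all promoters unmethylated in WT. For the list of growth factors the count was 2 of 49 (4.08%) against the same 1.21%, with a median difference of 0.20 points. Neither list was matched for CpG density, with which the share of members fell, as given below.

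Immune and interferon-responsive genes formed a group of 8, with a median gain of 55.4 points. The interferon-induced genes Ifi27 (5.49% of 182 calls in WT, 67.02% of 191 in TCKO) and Ifi44l (0.60% of 168 calls and 59.6% of 178) were unmethylated at nearly every WT call. Ly9, a receptor of lymphocytes of the SLAM family, had 5 of 35 methylated calls in WT and 52 of 64 in TCKO (81.2%), the highest TCKO level of the members. Fcgrt, the neonatal Fc receptor chain, gained 57.4 points and Apol6 53.4 points. Def6 gained 39.99 points, Lacc1 29.3 points and the kinase Ikbke 25.2 points.

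Proteases and protease inhibitors numbered 6. Ctsk encodes cathepsin K, the protease with which osteoclasts degrade bone collagen and which mesenchymal cells also make. None of its 168 WT calls was methylated, which allows a level of up to 1.79% by a floor of 3 calls and up to 2.24% by the Wilson interval, while 121 of 189 TCKO calls were methylated (64.0%, interval 57.0 to 70.5). Pi15, a trypsin inhibitor, had 4.44% of 90 calls in WT and 63.2% of 95 in TCKO, and Spink13, a Kazal-type inhibitor, 13.7% of 102 and 80.2% of 86. The aminopeptidase Enpep gained 44.1 points, the carboxypeptidase Cpa6 45.2 points and the SUMO protease Senp5 25.5 points. The cadherins Cdh18 (9.68% of 62 calls in WT, 54.4% of 68 in TCKO) and Cdh19 and the protocadherin Pcdhgc5 (5.75% of 87 calls, 69.4% of 49), adhesion proteins of the cell surface, gained 44.7, 51.1 and 63.6 points. The Cdh18 window lies 624429 bp from the start that most of its transcripts share. That start had 52.7% in WT and 70.2% in TCKO, and another start had 0% and 3.30%.

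Receptors and their adaptors numbered 10. For Notch1, the receptor of the Notch pathway, the gene record starts 12841 bp upstream of another annotated start. At the outer start 7 of 74 WT calls (9.46%) and 30 of 39 TCKO calls (76.9%) were methylated, while the inner start was unmethylated in both libraries (1.83% of 164 calls and 3.82% of 157). The outer window had only 8 cytosines with a call in both libraries, on which 6 of 12 WT calls and 10 of 15 TCKO calls were methylated. The interleukin-1 receptor Il1r1 gained 29.2 points, and a second start 41506 bp away also gained (10.6% in WT, 42.4% in TCKO). Gper1, Mrgprh and Hcar1, which are G protein-coupled receptors, gained 46.0, 53.4 and 33.3 points. Mst1r, a receptor tyrosine kinase, gained 25.2 points, the receptor phosphatase Ptpre 36.1, the semaphorin Sema6b 31.7, the scavenger receptor Scara3 28.5 and the adaptor Shb 27.1.

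Enzymes of metabolism were the largest group with 15 members and a median gain of 28.7 points. Adh7, an alcohol dehydrogenase that also oxidizes retinol, stood out with 3 of 144 methylated calls in WT (2.08%) and 82 of 132 in TCKO (62.1%). Ddo (D-aspartate oxidase, 52.9 points), Pla2g2c (47.8), Nnmt (nicotinamide N-methyltransferase, 41.1), A4galt (38.1), Ugt1a7c (38.1) and Cda (cytidine deaminase, 30.1) followed. Cyp4f16, Plcd4, H2-Ke6, Eci1, Dio2, Pon3, Ampd2 and Ehhadh gained between 25.8 and 28.7 points. Of the 10 channel and transporter members, Kcnn4, a calcium-activated potassium channel, had no methylated call among 46 in WT, which allows up to 6.52% by the floor of 3 calls and 7.71% by the Wilson interval, and 24 of 51 in TCKO. Calhm5, Slc2a10, Tmc3, Slc22a21, Slc26a2, Slc25a37, Orai1, Slc26a7 and Mpc1 gained between 26.0 and 39.3 points.

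Nuclear factors numbered 10 and differed from the groups above in sequence, since 9 of them lay in CpG-rich windows. E2f4, a repressor of cell cycle genes, had the highest gain among them (3.72% of 215 calls in WT, 48.2% of 56 in TCKO). Zbtb4 and Gmeb2 gained 39.7 and 35.0 points, Hif1a, the oxygen-regulated factor, 31.2 points, and Zmiz2, Pole2, Batf3, Hp1bp3, Taf8 and Sbno1 between 26.1 and 30.6 points. Regulators of the cytoskeleton and of small GTPases also numbered 10, with Dab2ip at 50.2 points, Arhgef12 at 39.9, Dtna at 39.1, Cald1 at 35.2, and Dnah7a, Dync1i1, Dock1, Arhgef39, Fgd3 and Arhgdib between 27.3 and 32.2. Enzymes of ubiquitination, phosphorylation, RNA modification and translation were Cdk15 (38.9 points), Ube2e3 (33.6), Eef1a1 (28.6), Dusp12 (26.7), Trim16 (26.4), Ppp1ca (25.3) and Mrm1 (25.01).

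The remaining 32 members were placed in no functional group. Their gains ran from 25.1 to 62.5 points with a median of 31.4. Highest was 1500015O10Rik (14.0% of 57 calls in WT, 76.6% of 64 in TCKO), then Mpp4, Emp3, S100a4, 3425401B19Rik, Klhl38, Plppr4, Fam180a, Ppfia4, Gm16253 and Mrln, all at 45.02 points or more. Emp3 had no methylated call among 103 in WT, which allows up to 2.91% by the floor of 3 calls and 3.595% by the Wilson interval, and 60 of 109 in TCKO (55.05%). Spaca7, Btbd19, Iqub, Luzp2, Snph, G430095P16Rik, Btbd6, Ccdc9b, Txlnb, Esyt3, Cfap97d1, Bola3, Mamdc2, Cntln, Ispd, Ehbp1l1, Heatr3, Trarg1, Ccdc122, Shisal2a and Nucb1 completed the set. The groups were assigned by general knowledge of the genes after the members were known.

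Members had far fewer CpGs than the other promoters that were unmethylated in WT. The median density was 2.10 CpGs per 100 bp (quartiles 1.40 and 5.09), against 6.69 (quartiles 5.00 and 8.49) in the 10845 others. The ratio of observed to expected CpGs had a median of 0.34 against 0.75, and the GC content 52.7% against 60.1%. The share of promoters that gained fell with density: 17 of 36 (47.2%) below 1 CpG per 100 bp, 46 of 209 (22.0%) from 1 to 2, 17 of 482 (3.53%) from 2 to 3, and 11 of 3338 (0.33%) at 8 or more. The 95% Wilson interval at the lowest density was 32.0% to 63.0% and that at the highest 0.18% to 0.59%.

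**Figure D2:**
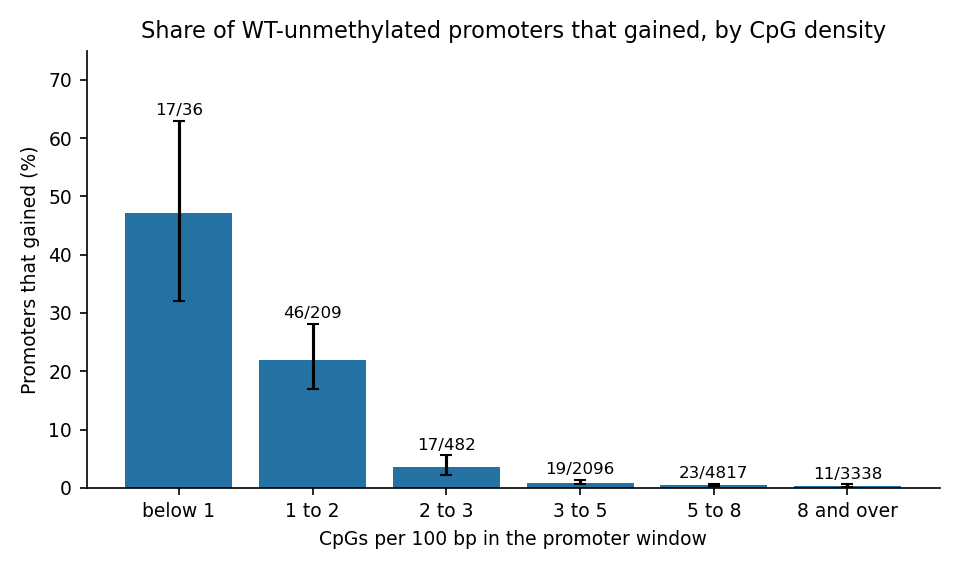
Share of promoters below 15% in WT that gained methylation (%), by CpGs per 100 bp in the window, with 95% Wilson intervals and the numbers of promoters. The share drops from 47.2% at the lowest density to 0.33% at the highest.

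By the usual classes of promoter sequence, 66 members were CpG-poor, 29 intermediate and 38 CpG-rich. CpG-rich means that a 500 bp interval of the window has an observed to expected ratio above 0.75 and over 55% GC, and CpG-poor means that no interval has a ratio above 0.48. CpG-poor promoters made up 2.96% of those unmethylated in WT and 49.6% of the members. Of the 325 CpG-poor promoters, 20.3% gained (interval 16.3 to 25.02), of the 2077 intermediate ones 1.40%, and of the 8576 CpG-rich ones 0.44%. The median gain was 41.5 points in CpG-poor members, 33.3 in intermediate and 28.3 in CpG-rich ones. CpG-poor promoters that did not gain also had a higher level in TCKO in 74.5% of cases, with a median difference of 3.45 points, against 52.2% and 0.18 points for CpG-rich ones. Equal levels were not counted as higher.

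The classes also differed in which cytosines carried the calls. In CpG-rich members the TCKO library had a median of 0.55 times the WT calls, against 0.87 times in CpG-poor members and 0.82 times in the CpG-rich promoters that did not gain. Of the cytosines with a WT call in CpG-rich members, a median of 37.0% also had a TCKO call, against 89.5% in CpG-poor members. The level was therefore computed again in steps. With calls pooled over only the cytosines that had a call in both libraries, 61 of 66 CpG-poor, 24 of 29 intermediate and 18 of 38 CpG-rich members kept a gain of 25 points or more. With all cytosines but each weighted equally, the counts were 56, 16 and 1. The last step weighted the shared cytosines equally, a choice made after the values were seen. On that measure 57 of 66 CpG-poor members, 16 of 29 intermediate members and 3 of 38 CpG-rich members still had a gain of 25 points or more. The median gain was 39.9 points in CpG-poor, 28.9 in intermediate and 10.1 in CpG-rich members. Luzp2 and H2-Ke6 were not higher in TCKO on it, with differences of -2.99 and -0.67 points. By function, 12 of 14 matrix members, 7 of 8 immune members and 6 of 8 secreted signals kept such a gain, but only 2 of 10 nuclear factors. In CpG-rich members the weight given to deeply covered cytosines thus changed the gain more than the restriction to shared cytosines did. The median gain of CpG-rich members was 28.3 points from all calls, 24.7 with shared cytosines alone and 12.8 with equal weights alone. The cause of the uneven depth was not tested.

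**Figure D3:**
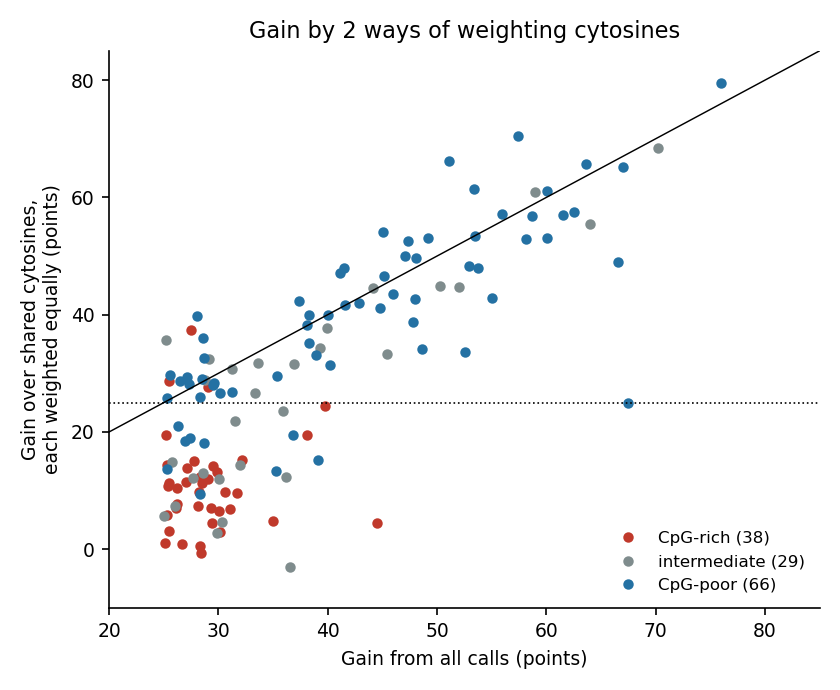
Gain of each member from all calls (horizontal axis, points) against its gain over cytosines with a call in both libraries, each weighted equally (vertical axis, points), coloured by CpG class. The solid line marks equal values and the dotted line 25 points; 3 of 38 CpG-rich members reach it, and 57 of 66 CpG-poor members do.

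Single CpG-rich members differed in where their calls lay. E2f4 had calls on 93 cytosines in WT that had none in TCKO, and 1 of those 134 calls was methylated. On the 12 cytosines that both libraries covered, 7 of 81 WT calls (8.64%) and 27 of 56 TCKO calls (48.2%) were methylated, but with each of the 12 weighted equally the gain was 4.50 points. Gmeb2 has the most CpGs of the members (111 in the window). Of its 88 methylated TCKO calls, 85 came from 28 plus-strand cytosines between 36 and 188 bp downstream of the TSS, with at most 5 calls at any one, and WT had 5 calls there, all unmethylated. Outside this stretch 3 of 129 TCKO calls were methylated. In Igfbp7, Dock1 and Cntln the cytosines covered in both libraries had 18.2%, 20.9% and 16.4% in WT and 54.5%, 39.8% and 35.6% in TCKO. The 3 CpG-rich members with a gain of 25 points on shared, equally weighted cytosines were Orai1, Ehbp1l1 and Batf3, with 37.4, 28.6 and 27.7 points over 13, 16 and 23 cytosines.

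**Figure D4:**
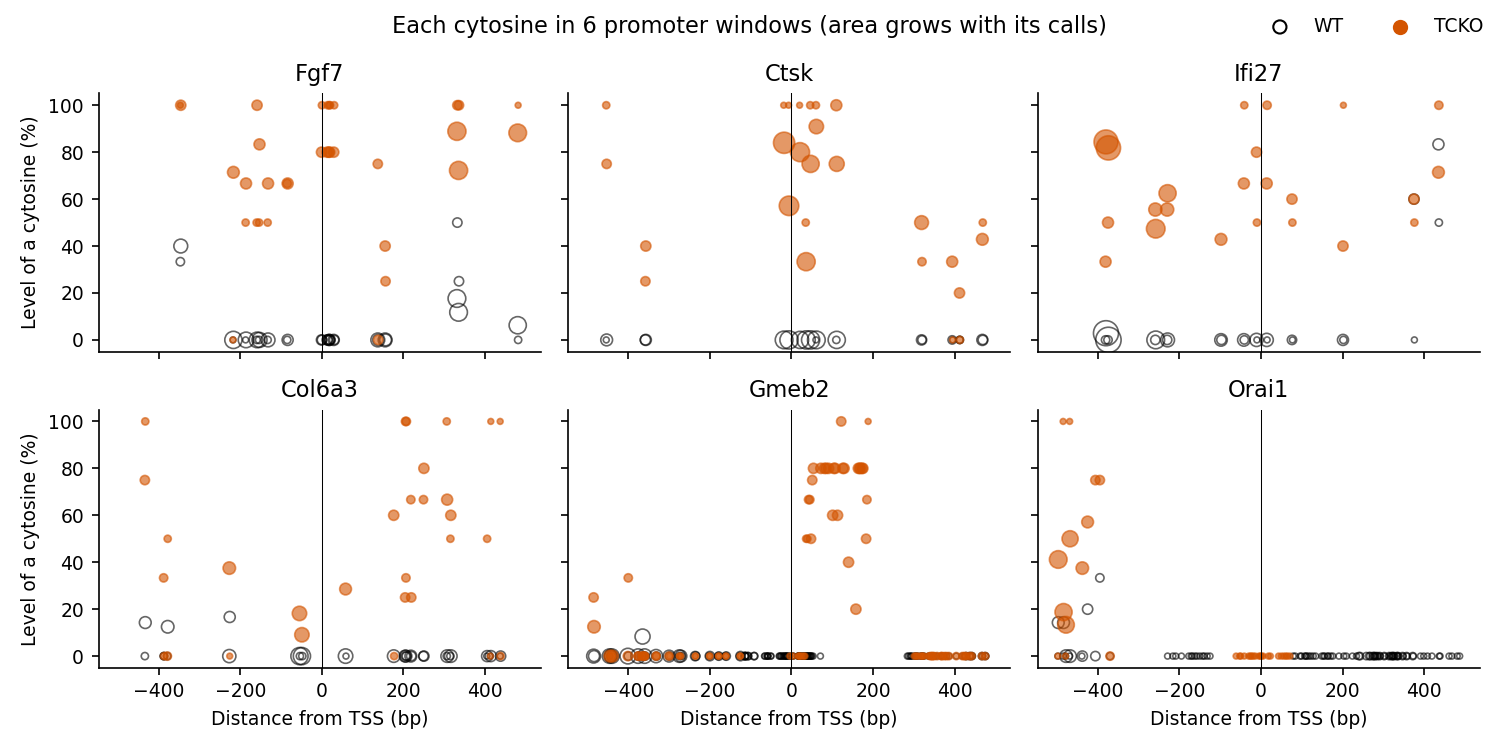
Level (%) of each CG cytosine against its distance from the TSS (bp) in 6 member windows, WT as open black and TCKO as filled orange circles, with area growing with the number of calls. In Fgf7, Ctsk and Ifi27 high TCKO levels lie on both sides of the TSS over WT levels mostly near 0, whereas in Gmeb2 they sit within 188 bp downstream and in Orai1 at the upstream edge.

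The position of the gain followed the same division. Pooled over CpG-poor members, the level in the 100 bp from the TSS onward was 2.80% in WT and 44.2% in TCKO, and in the 100 bp bin that starts 400 bp upstream 9.96% and 61.6%. In CpG-rich members the 100 bp just before the TSS had 0.95% in WT and 2.66% in TCKO, the 100 bp from the TSS onward 0.32% and 11.4% (0.33% and 1.21% without Gmeb2, a value added after seeing the data), and the bin that starts 400 bp upstream 16.7% and 61.3%. Within 100 bp of the TSS, 20 CpG-rich members had at least 10 calls in each library, and 18 of these stayed below 15% in TCKO. Of 37 CpG-poor members with such coverage, 10 stayed below 15% and 21 were at least 25 points higher in TCKO. The side upstream of the TSS gained more than the side downstream in 81 of 124 members with calls on both sides. Pooled by class, the bins that start 500 bp upstream and 400 bp downstream differed mainly in CpG-rich members. There TCKO was 31.3 and 5.42 points higher, against 46.1 and 42.3 in intermediate and 41.8 and 46.9 in CpG-poor members. A larger difference upstream was not particular to the members. Pooled over the other promoters, TCKO was 5.17 points higher in the bin that starts 500 bp upstream. In the bin that starts 400 bp downstream it was 1.38 points higher. Counting outward in 100 bp bins to the first bin with at least 5 calls and a level of 50% or more, the low stretch had a median length of 1700 bp in members and 2200 bp in the other promoters in WT, and 900 bp and 2000 bp in TCKO. Beyond the window, up to 2000 bp upstream, the median level of the members was 71.5% in WT and 83.2% in TCKO, and that of the other promoters 57.1% and 65.8%.

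**Figure D5:**
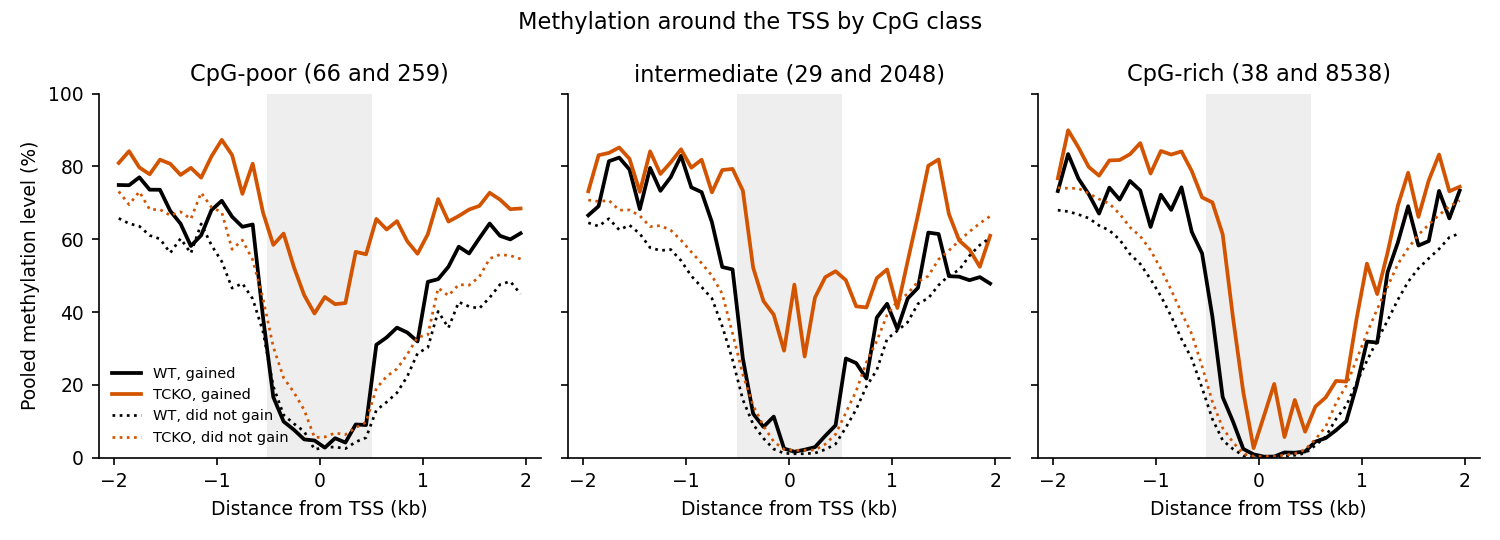
Pooled methylation level (%) in 100 bp bins from 2 kb upstream to 2 kb downstream of the TSS, for members (solid) and other promoters below 15% in WT (dotted), WT in black and TCKO in orange, by CpG class with the numbers of promoters; the chosen window is shaded. In CpG-poor members the TCKO level stays at 39.6% or more across the window, while in CpG-rich members it falls to 2.66% just before the TSS; the peak of 20.3% after it drops to 1.91% without Gmeb2.

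Single cytosines showed mixed levels. Among 721 cytosines of members with at least 4 calls in each library, 78.2% had a level of 20% or less in WT and 2.50% a level of 80% or more. In TCKO, 22.3% were at 20% or less, 55.5% between the limits and 22.2% at 80% or more. At 474 of the 721 cytosines (65.7%) the level was at least 25 points higher in TCKO. In Fgf7 this held for 20 of 21 such cytosines, in Ctsk for 12 of 12, in Pi15 for 10 of 10, in Lum for 10 of 10 and in Col6a3 for 8 of 10. In Hif1a it held for 8 of 15 and in Cald1 for 3 of 12.

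The 2 strands give measurements from different reads. Of the members, 129 had a higher level in TCKO on both strands and 73 were at least 25 points higher on both. Where promoters were chosen with the same limits on the plus strand alone (at least 4 cytosines and 15 calls), 218 met the rule, and in the 200 that could be measured on the minus strand the median difference was 34.8 points on the choosing strand and 15.2 on the other. Of these, 163 were higher in TCKO on the minus strand and 69 (34.5%) by 25 points or more. In the opposite direction 75 of 205 (36.6%) were higher by 25 points or more. Among all promoters below 15% in WT on the choosing strand, 44.5% (of 9133, read on the minus strand) and 45.2% (of 9199, read on the plus strand) were higher in TCKO on the other strand, and 1.86% and 2.01% by 25 points or more. Their median difference was 0 points in both directions, so the rest were not all lower. The sets were not matched for CpG class. Over both strands, 74.5% of CpG-poor and 52.2% of CpG-rich promoters that did not gain were higher in TCKO. The difference was thus smaller in the calls that did not choose the promoter, while 81.5% and 84.4% of the chosen promoters were higher in TCKO there.

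A gene can have several starts. Of the members, 40 had another protein-coding start at least 1 kb away, and 37 of these had enough calls at one. In 10 members another start was unmethylated in both libraries, as in Hif1a, where the start 6529 bp downstream had no methylated call among 208 in WT and 190 in TCKO. The same held at Ube2e3, Arhgef12, Eef1a1 and Notch1. In Il1r1 and Shb another start gained as well. The gene-level TSS was within 100 bp of the start that most transcripts share in 114 members (85.7%), and in 86.0% of the promoters that did not gain. In Mpp4 the shared start lay 1753 bp away and was already methylated, with 76.0% in WT and 72.6% in TCKO. A second gene starting within 1 kb on the opposite strand was found at 5 members (3.76%), against 19.01% of the other promoters. The 5 were Dusp12, Ispd, Ppp1ca, Lacc1 and Ccdc122, all of them CpG-rich. One such pair, Lacc1 and Ccdc122, has both genes as members with starts 132 bp apart, so their windows share most calls. CpG-rich promoters made up 28.6% of the members and 78.1% of all promoters unmethylated in WT. The shares with a second gene were not matched for CpG class, so nothing is read from their contrast.

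Members were found on all 19 autosomes, with 2 to 19 per chromosome. Chromosome 1 had 19 members among 651 promoters unmethylated in WT. Besides Lacc1 and Ccdc122, 8 pairs lay within 200 kb: Col3a1 and Col5a2, Mpp4 and Cdk15, Hp1bp3 and Cda, Mgp and Arhgdib, Tmc3 and Il16, Sostdc1 and Ispd, Fgd3 and Ecm2, and Ecm2 and Aspn. Repeat-masked bases made up a median of 11.1% of the window in members and 6.99% in the other promoters.

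Short sequence motifs were counted on both strands within 500 bp of the TSS. The letters TGANTCA, the site of AP-1 factors, occurred in 26.3% of the members and 12.8% of all promoters unmethylated in WT. Within the CpG-poor class the shares were 43.9% of members and 24.3% of all. The letters TATAAA occurred in 36.1% of members and 18.98% of all promoters, and in the CpG-poor class in 51.5% and 35.4%. In the intermediate class the shares were 31.0% and 24.6%, while in the CpG-rich class they were 13.2% (5 of 38 members) and 17.0%. AACCACA, a core of RUNX sites, was found in 21.8% of members and 10.9% of all, and CATTCC, a core of TEAD sites, in 50.4% and 33.7%. Within the CpG-poor class these contrasts were smaller, with 22.7% against 16% for AACCACA and 57.6% against 48% for CATTCC. In the 300 bp upstream AACCACA stood at 6.06% of CpG-poor members and 6.15% of all CpG-poor promoters. Within the CpG-rich class the window shares were 21.1% against 9.83% for AACCACA and 39.5% against 31.3% for CATTCC. In the intermediate class they were 20.7% against 14.3% and 48.3% against 41.3%. Upstream, AACCACA stood at 7.89% (3 of 38 members) against 3.21% in the CpG-rich class. In the intermediate class it stood at 6.90% (2 of 29 members) against 4.81%, so these upstream shares rest on few promoters. GGGCGG, a site of SP factors, was less frequent in members (56.4% against 89.3%), and within the CpG-poor class the shares were 39.4% and 52.9%. CCAAT was found in 67.7% and 66.2%, and CANNTG, which nearly every window holds, in 98.5% and 96.1%. The contrast for TGANTCA also differed by class. In CpG-rich promoters it stood at 7.89% of members (3 of 38) and 11.7% of all, and in intermediate ones at 10.3% (3 of 29) and 15.6%. These are counts of letters and say nothing on whether a factor binds.

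Other gene lists, like all lists here, were chosen with earlier results known. None of 80 developmental transcription factors that were unmethylated in WT was a member, and their median difference was 0 points. None of 37 Hox genes, 249 Zfp genes, 69 ribosomal protein genes, 142 Tmem genes, 37 matrix proteases, 24 myosins or 17 tetraspanin and claudin genes was a member. Nor was any of 16 RUNX2 partners and targets, 10 chondrocyte, 7 adipocyte, 7 muscle, 5 endothelial, 12 epithelial, 19 neuronal and 4 germline genes. At 1.21% the lists of up to 80 promoters would hold fewer than 1 member if members were spread evenly, so nothing is read from a count of 0 there, or from the counts of 1 for the single members in the lists of receptors and adhesion (Notch1 of 47), metabolism and housekeeping (Eef1a1 of 23), potassium channels (Kcnn4 of 65), semaphorins, plexins and ephrins (Sema6b of 40), S100 and annexins (S100a4 of 13), chemokines and receptors (Ccl7 of 8), cytochrome P450 (Cyp4f16 of 20), and osteoclast and myeloid genes (Ctsk of 4). The counts of 0 for Zfp and Tmem genes are not read as a result either, since only 0.44% of CpG-rich promoters gained and no list was matched for CpG class. Of 169 solute carriers 5 were members (2.96%), and of 31 cadherins and protocadherins 3 (9.68%). Of the study's own genes, 10 were unmethylated in WT and 3 were members, Ctsk, Fgf7 and Col1a2. The study chose that list on these samples, so the count is not independent evidence. Runx2, the master factor of osteoblasts, had 2.88% of 139 calls in WT and 19.7% of 122 in TCKO and did not meet the limit.

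Promoters of marker genes were read to see which cells the libraries could hold. Among 9 osteoblast markers the levels ran from 1.41% (Col1a1) to 76.5% (Sparc) in WT, and all 9 were higher in TCKO. The haematopoietic markers with enough calls had 56.3% to 83.4% in WT and 74.3% to 93.9% in TCKO, and 4 of 5 were higher in TCKO. The osteoclast markers other than Ctsk stood at 66.3% or more in WT. Endothelial markers ran from 23.1% to 76.7% in WT and from 19.5% to 83.9% in TCKO, adipocyte markers from 68.3% to 75.2% and from 68.3% to 82.1%, muscle markers from 20.4% to 85.4% and from 25.7% to 85.1%, epithelial markers from 7.91% to 81.8% and from 10.3% to 87.7%, and chondrocyte markers from 0% to 61.9% and from 1.64% to 72.6%. Higher in TCKO were also 4 of 5 osteoclast, 4 of 5 endothelial, 4 of 5 chondrocyte and 3 of 4 muscle markers. The same held for 2 of 4 epithelial markers and 2 of 3 adipocyte markers with enough calls. The part of these cell types in the gains was not tested. In bulk DNA, a change in the mix of cells between the libraries cannot be told apart from a change within osteoblasts at these promoters. Promoter methylation does not by itself identify a cell type. The autosomal level was 70.4% in WT and 76.6% in TCKO, with means of 7.22 and 6.31 calls per covered cytosine. The mitochondrial level, read as an estimate of incomplete conversion, was 0.19% in WT and 0.25% in TCKO. Each Tet gene was searched for stretches with few TCKO calls relative to WT, and the stretch with the most WT calls was kept. In Tet1 it spanned 3500 bp, with 70 calls in TCKO against 755 in WT. In Tet2 it spanned 2000 bp, with 13 against 122, and in Tet3 1500 bp, with 9 against 133. Low TCKO depth was the search rule and no other gene was searched, so these counts are no check of the deletion.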

How the data were processed

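WGBS of primary osteoblasts, with 1 WT and 1 TCKO library assigned by their labels, was used. Per the authors, BSMAP 2.74 placed the reads on GRCm38, allowing up to 2 mismatches and using unique hits. The deposited tables give a methylated count and a total count of reads at every CG position of either strand. Whether duplicate reads were removed is not given in the sources used here. Depth was 250877554 autosomal calls in WT and 214609823 in TCKO. All rows fell on a CG of the RefSeq GRCm38 reference (100%), which with GENCODE M21 gave positions, genes and sequences.

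Calls were pooled over 500 bp on either side of the TSS of the gene record. Levels carry Wilson and gains Newcombe 95% intervals. With 1 library per genotype no test was run. The members, gene lists and comparisons were chosen with earlier results of these data known. Named were the 12 members with the highest lower bounds, the 5 with the most and the 5 with the fewest CpGs, the 5 with the highest TCKO levels, those of the bone, study, RUNX2 and growth factor lists, those at the limits, and up to 10 others for their family. All further members are listed because the whole set is described, and were named after their values were seen. Functional groups were assigned after the members were known. The code was tested on simulated data. Alternatives changed the window, limits, cytosines, weighting, strand and TSS. Python 3.11.15, numpy 2.4.6, pandas 2.3.3, scipy 1.17.1 and matplotlib 3.10.9 were used.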

Additional observations from a re-analysis of the deposited data

How the results depend on the processing

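The number of members, 133, was set by the limits. It was 210 with a gain of 20 points, 78 with 30 and 44 with 40, 48 with at least 100 calls, and 60 with windows of 1000 bp on either side, of which 24 were members. In the other alternatives it stayed between 92 and 185, but which promoters met the rule changed: 37 of 133 members met it in windows of 250 bp, 62 with cytosines weighted equally, 92 with cytosines covered in both libraries, 48 on the plus and 53 on the minus strand, and 113 at the TSS shared by most transcripts. With shared cytosines weighted equally, chosen after seeing the data, 97 promoters met it and 64 of them were members. Where these were computed, the median gain of the promoters chosen ran from 29.9 to 41.9 points and their median density from 1.499 to 2.85 CpGs per 100 bp. The median gain was not computed for the changed WT and gain limits. The density was not computed for the changed WT limit, calls, weighting, strands or shared cytosines. Of 296 values for 33 named promoters under 9 alternatives, 215 stayed within the main interval and 79 moved outside it, and 2 changed sign: Shisal2a to -1.504 points in windows of 250 bp and Col1a2 to -4.41 points on the minus strand. The cause of the changes was not tested. Many of the values that stayed could not have moved. Leaving out cytosines above 50 calls changed none of the 33 values. At the TSS shared by most transcripts 31 stayed, most of them because the TSS was the same. No paired analysis was possible because each genotype has 1 library. With a median of 81 TCKO calls a member, the interval of a gain reached a median of 11.7 points to either side of its middle.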
